A study of Homo sapiens with 6 samples.

Results

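Laminins, nidogen and perlecan are the non-collagen core of the basement membrane, and 9 of their genes were followed here: the laminin alpha chains LAMA3, LAMA4 and LAMA5, the beta chains LAMB1, LAMB2 and LAMB3, the gamma chain LAMC1, the nidogen gene NID1, and HSPG2, which encodes perlecan. The members were taken by gene symbol, and the counts of their 96 transcripts were summed by gene. These are 9 of 30717 named genes measured. RNA was sequenced from T24 and UMUC3, established human bladder cancer lines, in 6 libraries. Each line has 2 libraries in which circPTK2, the circular transcript of the PTK2 gene, was knocked down, and 1 control library, titled in the same way but ending in CON. The groups are therefore T24 knockdown (n = 2), T24 control (n = 1), UMUC3 knockdown (n = 2) and UMUC3 control (n = 1), and no other treatment or allele is given. The titles name the reagents as siRNAs, whereas the design text of the series writes sh, so the kind of reagent is unclear. Knockdown libraries 1 and 2 carry siRNA numbers 1 and 2 of the titles. In T24 the matching data columns carry these numbers swapped. Since the labels do not state whether both knockdown libraries of a line are from separate cultures, p-values reflect only how far these samples spread, which may be technical. If the numbers name different siRNAs, each knockdown pair joins 2 reagents, and its spread also holds any difference between them. A control library stands alone in its line, and the fit lends it the spread seen between knockdown libraries.

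A laminin is a cross-shaped trimer of an alpha, a beta and a gamma chain that assembles in the endoplasmic reticulum, is secreted, and polymerises on the cell surface. Nidogen bridges the gamma chain to type IV collagen, and perlecan, a large heparan sulfate proteoglycan, ties the network to growth factors and to collagen. Under the urothelium this sheet separates the epithelium from the lamina propria, and the trimer that holds the LAMA3 and LAMB3 chains anchors hemidesmosomes.

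Libraries held 55071837 to 60780176 counts in named genes. Levels are given as CPM, counts scaled by the named-gene total of the library and its TMM factor. As a check of the line labels, CDKN2A, which is deleted in UMUC3, was listed at 0 counts in all UMUC3 libraries. T24 libraries held 5572 to 8463 counts of it. Keratins KRT8 and KRT18 were present in both lines, with at least 4822 counts in every library. Of the other epithelial and urothelial markers, CDH1 had at most 8 counts, UPK1A, UPK1B and UPK2 at most 23, KRT5 at most 27 and KRT20 at most 4. GATA3, a urothelial transcription factor, had 2626 to 4370 counts in T24 libraries and 38 to 46 in UMUC3 libraries, and EPCAM had 120 to 142 in T24 libraries and 0 in UMUC3 libraries. Of the markers of other cell types, PTPRC (immune) had at most 4 counts, and PECAM1 and VWF (endothelial) at most 57. CDH5 (endothelial) stood apart, with 3836 to 4486 counts in T24 libraries and 0 in UMUC3 libraries, in the same direction as most members. PDGFRA (fibroblast) had 51 to 91 counts in UMUC3 libraries and 0 in T24 libraries. The part of other cell types in the results was not tested. In bulk RNA, fewer cells of a type and less RNA per cell cannot be told apart.

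The largest differences in these genes lay between the lines. LAMA3, LAMA4, LAMA5, LAMB1, LAMB3, LAMC1 and NID1 were higher in all 3 T24 libraries than in all 3 UMUC3 libraries, while LAMB2 and HSPG2 overlapped between the lines. With line and knockdown as terms of an edgeR quasi-likelihood fit (Benjamini-Hochberg adjusted p under 0.05), 7 of 9 members passed and all 7 were higher in T24. Over all 20721 genes tested, 40.2% passed in either direction and 21.3% were higher in T24. No overlap with T24 above was seen in 27.2% of all genes. The median log2 difference of the members was 2.61, against 0.02 over all genes tested. Knockdown was accompanied by smaller differences, and 1 of them passed the threshold: LAMA5 fell in UMUC3 knockdown libraries to 0.421 times the UMUC3 control on the fitted scale, log2 -1.25 ± 0.12 (SE, edgeR adjusted p = 0.0495).

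**Figure D1:**
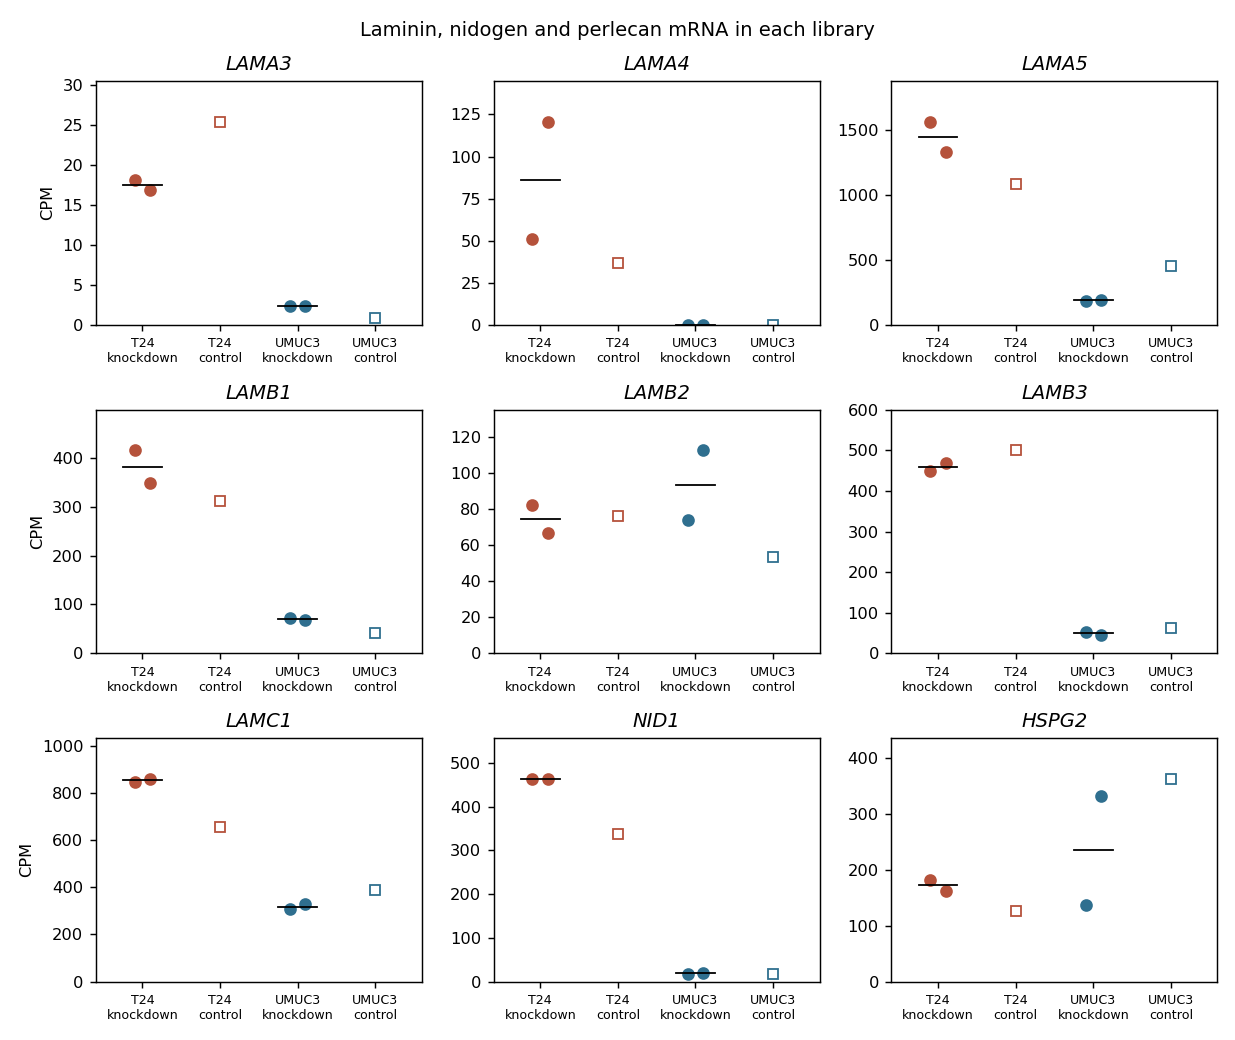
Level of each member in each library, in CPM on linear axes that start at 0. Filled circles are knockdown libraries with their mean as a line, open squares are the single control libraries, red is T24 and blue is UMUC3. All T24 points lie above all UMUC3 points for 7 members; LAMB2 and HSPG2 overlap between the lines, and LAMA4 is listed at 0 in UMUC3.

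Among the alpha chains, LAMA5 (ENSG00000130702, GRCh38 chromosome 20, 62307955 to 62367312, minus strand) encodes an alpha chain found widely in adult epithelial basement membranes. It stood at 1561 and 1328 CPM in the T24 knockdown libraries and 1080.1 CPM in the T24 control. In UMUC3 it stood at 183.9 and 194.2 CPM in the knockdown libraries and 449.5 CPM in the control. Both knockdown libraries were above the control in T24 and both were below it in UMUC3, with no overlap between the lines in any library. The log2 fold change was 0.42 ± 0.12 in T24 (edgeR adjusted p = 0.317). The UMUC3 fall lay between -1.29 and -1.21 when any single library other than the UMUC3 control was left out, but the edgeR adjusted p then lay between 0.0512 and 0.232, so the call was lost each time, for either knockdown library of UMUC3 and for each T24 library. LAMA5 was higher in T24 than in UMUC3 by log2 2.39 ± 0.38 (edgeR adjusted p = 0.006).

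LAMA4 (ENSG00000112769, chromosome 6, 112108760 to 112254939, minus strand) encodes an alpha chain best known from blood vessels, muscle and fat. It had 51.2 and 120.7 CPM in the T24 knockdown libraries and 37.0 CPM in the T24 control. All 3 UMUC3 libraries held 0 counts. Both T24 knockdown libraries exceeded the control but differed more from each other than the lower one did from the control. The log2 fold change in T24 was 1.22 ± 0.69 (edgeR adjusted p = 0.581), and 0.47 without T24 knockdown library 2 (adjusted p = 0.694). Set against a floor of 3 counts per UMUC3 library, the lowest T24 library was at least 688-fold higher (edgeR adjusted p for the lines = 0.00387).

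LAMA3 (ENSG00000053747, chromosome 18, 23689443 to 23956222, plus strand), the gene of the alpha chain of the hemidesmosomal laminin, was the least abundant member expressed in both lines. Its values are mostly those of a long form, LAMA3-202 of 75 exons, which held 74.1 to 100% of its counts. No transcript was counted from the RefSeq start at position 23873020, the nearest counted 5′ end being 25717 bases away. The level of a form from that start is therefore not given by these counts. It had 18.1 and 16.8 CPM in the T24 knockdown libraries and 25.4 CPM in the T24 control. In UMUC3 it had 2.30 CPM in each knockdown library and 0.788 CPM in the control. The knockdown libraries lay below the control in T24 and above it in UMUC3. The log2 fold change was -0.54 ± 0.19 in T24 (edgeR adjusted p = 0.391) and 1.54 ± 0.33 in UMUC3 (adjusted p = 0.146), and neither passed. LAMA3 was higher in T24 than in UMUC3 by log2 3.49 ± 0.43 (edgeR adjusted p = 0.00216).

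Of the beta chains, LAMB1 (ENSG00000091136, chromosome 7, 107923799 to 108003255, minus strand) encodes the chain of most laminins outside specialised junctions. It measured 416.3 and 348.8 CPM in the T24 knockdown libraries and 312.0 CPM in the T24 control. In the other line it measured 71.5 and 67.9 CPM in the UMUC3 knockdown libraries and 41.0 CPM in the UMUC3 control. In CPM, every knockdown library was above the control of its line. For UMUC3 this depends on how transcript length is handled, as given below. With both lines together the log2 fold change was 0.52 ± 0.15 (edgeR adjusted p = 0.317), from 0.29 ± 0.14 in T24 (adjusted p = 0.49) and 0.77 ± 0.15 in UMUC3 (adjusted p = 0.125). With the most counted transcript in place of the gene sum the UMUC3 value was 1.60 (adjusted p = 0.169) and the T24 value 0.16 (adjusted p = 0.899). The line difference was log2 2.61 ± 0.15 (edgeR adjusted p = 0.00017).

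LAMB2 (ENSG00000172037, chromosome 3, 49121114 to 49133118, minus strand), the beta chain known from the neuromuscular junction and the kidney glomerulus, was the member most alike in the lines. T24 knockdown libraries held 82.5 and 67.0 CPM, on both sides of the T24 control at 76.3 CPM. UMUC3 knockdown libraries held 73.8 and 112.8 CPM, both above the UMUC3 control at 53.3 CPM. The ranges of the lines overlapped, and the log2 difference of T24 over UMUC3 was -0.04 ± 0.26 (edgeR adjusted p = 0.909). Its log2 change with knockdown was -0.03 ± 0.31 in T24 and 0.81 ± 0.32 in UMUC3 (edgeR adjusted p = 1 and 0.328).

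LAMB3 (ENSG00000196878, chromosome 1, 209614870 to 209652466, minus strand), the beta chain of the hemidesmosomal laminin, showed the steadiest gene total among the beta chains of T24. It had 450.2 and 468.4 CPM in T24 knockdown libraries and 500.9 CPM in the T24 control. UMUC3 knockdown libraries had 53.1 and 45.1 CPM and the UMUC3 control 63.2 CPM. All 4 knockdown libraries were below the control of their line. The log2 fold change with both lines together was -0.24 ± 0.12 (edgeR adjusted p = 0.497). T24 exceeded UMUC3 by log2 3.15 ± 0.12 (edgeR adjusted p = 4.47e-05).

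LAMC1 (ENSG00000135862, chromosome 1, 183023460 to 183145592, plus strand) encodes the gamma chain shared by most laminins. T24 knockdown libraries had 847.8 and 860.1 CPM and the T24 control 655.1 CPM. UMUC3 knockdown libraries had 306.1 and 329.5 CPM and the UMUC3 control 386.6 CPM. As for LAMA5, the knockdown libraries were above the control in T24 and below it in UMUC3. The log2 fold changes were 0.38 ± 0.08 in T24 and -0.28 ± 0.08 in UMUC3 (edgeR adjusted p = 0.212 in each). The line difference was log2 1.21 ± 0.15 (edgeR adjusted p = 0.00247), the smallest among the 7 members that passed.

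NID1 (ENSG00000116962, chromosome 1, 235975830 to 236065162, minus strand), the linker of laminin and type IV collagen, had the largest fitted difference between the lines among members measured above 0 in both, although between the control libraries alone T24 was 20.3 times UMUC3 for NID1 and 32.3 times for LAMA3. The T24 knockdown libraries had 464.2 and 463.0 CPM and the T24 control 337.9 CPM. The UMUC3 knockdown libraries had 18.6 and 19.3 CPM and the UMUC3 control 16.7 CPM. Every knockdown library was above its control, by 1.37 times in each T24 library and by 1.12 and 1.16 times in UMUC3. The log2 fold change was 0.46 ± 0.09 in T24 (edgeR adjusted p = 0.183), 0.18 ± 0.09 in UMUC3 (adjusted p = 0.412) and 0.32 ± 0.11 with both lines together (adjusted p = 0.369). T24 exceeded UMUC3 by log2 4.52 ± 0.12, or 23.0-fold (edgeR adjusted p = 1.38e-05).

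HSPG2 (ENSG00000142798, chromosome 1, 21822245 to 21937297, minus strand), the perlecan gene, had 182.2 and 163.0 CPM in T24 knockdown libraries and 127.3 CPM in the T24 control. It had 138.0 and 333.1 CPM in UMUC3 knockdown libraries and 363.7 CPM in the UMUC3 control. Knockdown library 1 of UMUC3 stood far below the other UMUC3 libraries and inside the range of T24. The log2 fold change was 0.44 ± 0.58 in T24 and -0.63 ± 0.55 in UMUC3 (edgeR adjusted p = 0.805 and 0.651), the UMUC3 value being -0.12 without knockdown library 1 and -1.40 without knockdown library 2. The line difference of log2 -0.80 ± 0.40 did not pass (edgeR adjusted p = 0.167), whereas without UMUC3 knockdown library 1 it was -1.20 with an adjusted p of 0.0121, lower in T24.

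Counted over the members, both knockdown libraries were above the control for 6 of 9 members in T24 and below it for 2 (34.7% and 37.3% of all genes tested). In UMUC3 they were above it for 4 of 8 and below it for 4 (35.6% and 37.1% of all genes). LAMB1 and NID1 were above in both lines, which 13.3% of all genes were, and LAMA5, LAMC1 and HSPG2 were above in T24 and below in UMUC3, which 12.1% were. In T24, 0 of 9 members passed in edgeR against 0.135% of all genes. At an unadjusted p under 0.05 LAMA5, LAMC1 and NID1 were higher and LAMA3 lower, 4 of 9 against 12.5% of all genes, and DESeq2 and voom called 0 members (6.49% and 0% of all genes). In UMUC3, 1 of 8 members passed against 0.647% of all genes, 0.217% being lower. There LAMA3 and LAMB1 were higher and LAMA5, LAMB3 and LAMC1 lower at an unadjusted p under 0.05, against 16.8% of all genes in either direction, while DESeq2 called 3 members (10.8% of all genes) and voom 0. With both lines together 0 of 8 members passed against 0.0145% of all genes, 2 (LAMB1 and NID1) had an unadjusted p under 0.05 against 11.6%, and DESeq2 and voom called 0 (5.48% and 0.00965% of all genes). The median log2 fold change of the members was 0.38 in T24, -0.05 in UMUC3 and 0.04 with both lines together, against 0.00, 0.00 and 0.01 over all genes tested. The comparisons of a line and of both lines share their control libraries.

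For the difference of the effects, T24 minus UMUC3, 0 of 8 members passed in edgeR against 0.0579% of all genes. At an unadjusted p under 0.05 there were 3 members against 13.5% of all genes: LAMA5 (log2 1.67 ± 0.17, edgeR adjusted p = 0.113), LAMC1 (0.66 ± 0.11, adjusted p = 0.173) and LAMA3 (-2.08 ± 0.38, adjusted p = 0.182). DESeq2 called 2 of them, LAMA3 and LAMA5, against 7.04% of all genes, and voom called 0. The opposite directions of LAMA5 in the lines are therefore values that the edgeR test of the difference did not separate.

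**Figure D2:**
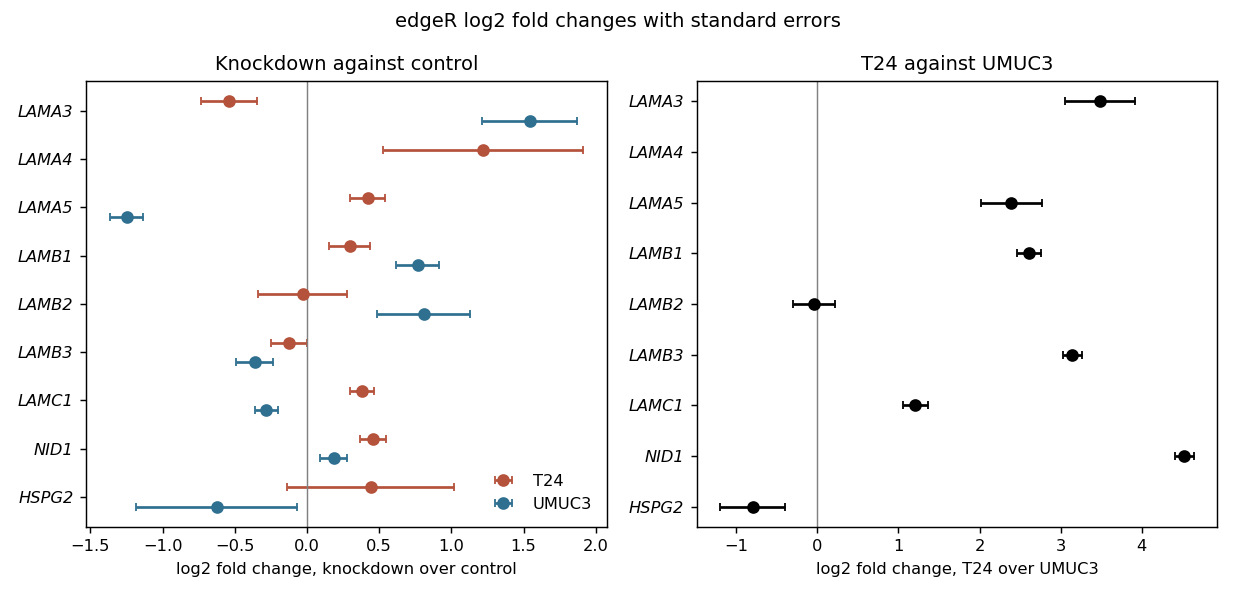
edgeR log2 fold change of each member with its standard error as a bar. The left panel gives knockdown over control in T24 (red) and UMUC3 (blue), and the right panel T24 over UMUC3. LAMA4 has no UMUC3 value and no fitted line value because UMUC3 held 0 counts; LAMA5 in UMUC3 lies at -1.25, and NID1 has the largest plotted line difference at 4.52.

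Levels of different chains were compared per length, as CPM per kilobase, in which each transcript's CPM is divided by its own length. LAMA5 was the leading member in T24 at 153.7 ± 23.6 CPM per kilobase (mean ± SD, n = 3), followed by LAMB3 (116.0 ± 8.3), LAMC1 (103.2 ± 15.7), LAMB1 (92.6 ± 22.1), NID1 (72.2 ± 12.6), LAMB2 (30.9 ± 2.1), LAMA4 (18.7 ± 8.8), HSPG2 (14.96 ± 2.6) and LAMA3 (4.52 ± 0.72). In UMUC3 the order was LAMC1 (45.2 ± 5.2), LAMA5 (38.8 ± 17.1), LAMB2 (32.0 ± 7.2), HSPG2 (29.2 ± 8.2), LAMB1 (17.8 ± 0.46), LAMB3 (12.9 ± 2.1), NID1 (3.10 ± 0.23) and LAMA3 (0.263 ± 0.20), with LAMA4 at 0. That order of UMUC3 means mixes groups that differ: LAMA5 stood at 28.5 and 29.3 CPM per kilobase in UMUC3 knockdown libraries, below LAMB2 at 32.1 and 39.1. In the UMUC3 control LAMA5 led with 58.5, above LAMC1 at 51.1. In T24 the ranges of mean ± SD overlapped among LAMB3, LAMC1 and LAMB1, between LAMB1 and NID1, and between LAMA4 and HSPG2. In UMUC3 they overlapped among LAMA5, LAMB2 and HSPG2, and between LAMC1 and LAMA5.

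Within the alpha class, which also holds LAMA1 and LAMA2, LAMA5 made up 82.3 to 89.8% of the CPM per kilobase in T24 libraries and 90.2 to 93.2% in UMUC3 libraries. LAMA4 came second in T24, with 7.99 and 15.04% in the knockdown libraries and 8.11% in the control. In UMUC3 that place was held by LAMA1, an alpha chain of early embryonic basement membranes, with 5.75 and 6.51% in the knockdown libraries and 6.42% in the control.

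The beta class was shared among 3 chains. LAMB1 held 44.6 and 38.2% in T24 knockdown libraries and 32.4% in the T24 control, while LAMB3 held 42.8 and 48.8% in knockdown and 54.5% in the control, so the T24 control had the most LAMB3 and the least LAMB1. In UMUC3, LAMB2 led with 51.5 and 57.1% in knockdown and 43.2% in the control. This order depends on how length is handled, since short retained-intron transcripts weigh heavily per kilobase. With each gene divided by the length of its most counted transcript, a choice made after seeing the data, LAMB2 held 34.5 and 47.2% in UMUC3 knockdown and 30.2% in the UMUC3 control, where LAMB3 then led with 46.9%. In T24 the direction for LAMB1 was kept, with 37.9 and 33.6% in knockdown and 29.6% in the control. In UMUC3 it was not kept. There LAMB1 held 28.5 and 26.7% in knockdown and 30.2% in the control with each transcript's own length. With the length of the most counted transcript it held 33.0 and 28.0% in knockdown and 22.9% in the control. The level of LAMB1 in UMUC3 was 17.8 and 18.3 CPM per kilobase in knockdown and 17.4 in the control.

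**Figure D3:**
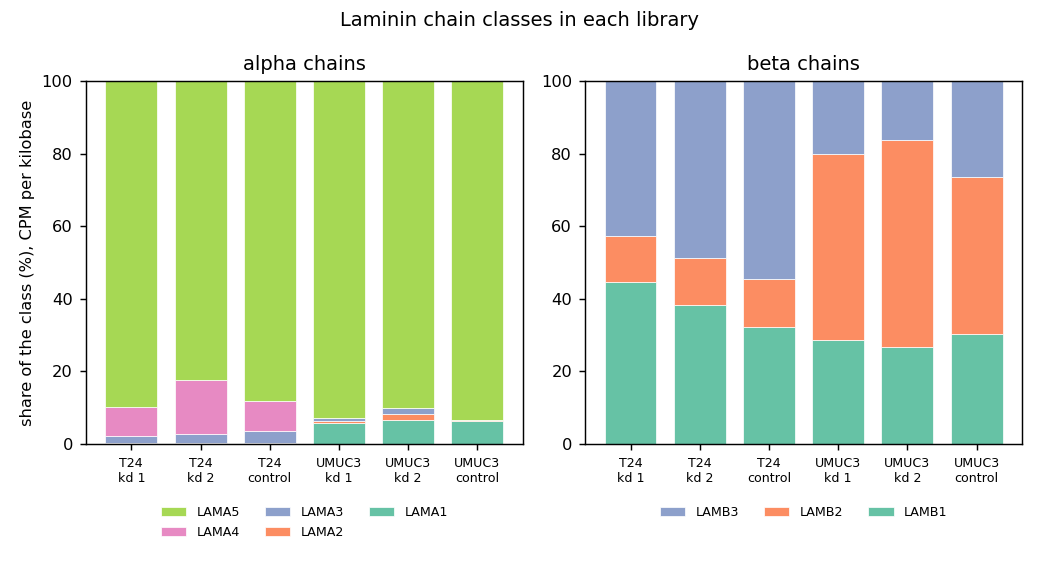
Share of each laminin chain within its class (alpha or beta), in percent of the CPM per kilobase of the class, one bar per library. LAMA5 fills 82.3 to 93.2% of the alpha class in every library, and LAMB2 has its largest shares in UMUC3.

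The ratio of LAMA5 to LAMC1 in CPM per kilobase was 1.56 and 1.41 in T24 knockdown libraries and 1.51 in the T24 control. In UMUC3 it was 0.687 and 0.682 in knockdown and 1.145 in the control, so LAMA5 changed more than its partner gamma chain there. The ratio of NID1 to LAMC1 was 0.700 and 0.718 in T24 knockdown and 0.677 in the T24 control, and 0.0764 in both UMUC3 knockdown libraries and 0.0556 in the UMUC3 control. These ratios carry no test.

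Below the gene totals, the counts of LAMB3 were assigned to different 5′ ends in different libraries. Its transcripts begin in an outer cluster (LAMB3-201 at position 209652466 and LAMB3-202 at 209652329 of chromosome 1) or in an inner cluster (LAMB3-203 at 209651334), all protein coding. The bases just upstream of each cluster are shown because the deposited counts fall on transcripts of different clusters in different libraries. Both are from RefSeq promoter windows on GRCh38.p14, minus strand, cut to the bases before any exon, outer chr1:209652467-209652675 and inner chr1:209651395-209651624. Capitals mark the palindrome TGANTCA, the AP-1 consensus, read on both strands.
LAMB3 outer: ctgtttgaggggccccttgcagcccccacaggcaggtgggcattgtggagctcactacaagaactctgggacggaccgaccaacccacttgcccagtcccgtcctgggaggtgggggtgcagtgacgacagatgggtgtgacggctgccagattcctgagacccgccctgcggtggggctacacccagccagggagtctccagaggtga
LAMB3 inner: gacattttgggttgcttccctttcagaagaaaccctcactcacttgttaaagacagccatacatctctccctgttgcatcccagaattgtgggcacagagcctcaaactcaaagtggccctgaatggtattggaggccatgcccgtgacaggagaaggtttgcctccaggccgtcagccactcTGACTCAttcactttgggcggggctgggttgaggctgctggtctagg
The inner window holds 1 TGANTCA and the outer windows hold 0. The motif occurs in 6.57% of 35116 RefSeq windows of 250 bases upstream of a start, and among the windows of the other members only in that of LAMA3, with 2. The LAMA3 window lies 25717 bases from the nearest counted 5′ end, and 74.1 to 100% of LAMA3 counts fell on the long form LAMA3-202. GGGCGG on either strand, the GC box, was in the windows of all members except LAMA4, against 42.6% of all windows. A match is a description of letters and not of binding.

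LAMB3-203, from the inner cluster, held 14.7% of LAMB3 counts in T24 knockdown library 1 (3938 counts), 93.5% in T24 knockdown library 2 (26048 counts) and 16.9% in the T24 control (5030 counts). LAMB3-202 held 50.5% in T24 knockdown library 1, 0% in knockdown library 2 and 47.2% in the T24 control. Knockdown library 1 thus resembled the control while knockdown library 2 stood apart, at gene totals between 450.2 and 500.9 CPM. In UMUC3, LAMB3-203 held 98.8 and 92.5% in knockdown libraries and 69.9% in the control, and LAMB3-201 held 1.01 and 6.44% in knockdown and 29.6% in the control. Between the paired knockdown libraries of T24, 78.9% of LAMB3 counts changed transcript, which is the largest shift of any member. Because the transcripts share most exons and the authors' assignment was used as deposited, whether start sites or the assignment differ was not tested.

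In NID1, the deposited counts were assigned to a shorter form in a single library. NID1-202, which lacks exons 10 to 12 of the 20 exons of NID1-201, held 3823 counts (13.9%) in T24 knockdown library 2, and 0 counts in T24 knockdown library 1, the T24 control and all 3 UMUC3 libraries. The skipped exons, of 126, 150 and 123 bases between chr1 positions 236011921 and 236017273, total 399 coding bases, so the reading frame is kept and 133 residues are lost. The junction sequences that tell the forms apart are shown, from the GRCh38 genome and minus strand, with skipped bases in capitals.
NID1-201 into exon 10: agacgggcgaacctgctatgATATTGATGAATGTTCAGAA
NID1-201 out of exon 12: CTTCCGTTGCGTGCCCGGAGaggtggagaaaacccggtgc
NID1-202 across: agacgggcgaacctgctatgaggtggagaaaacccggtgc
The gene total of T24 knockdown library 2, 463.0 CPM, was nearly equal to the 464.2 CPM of T24 knockdown library 1, in which all counts were on NID1-201. The authors' assignment was used as deposited, and whether splicing or the assignment differs in T24 knockdown library 2 was not tested.

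**Figure D4:**
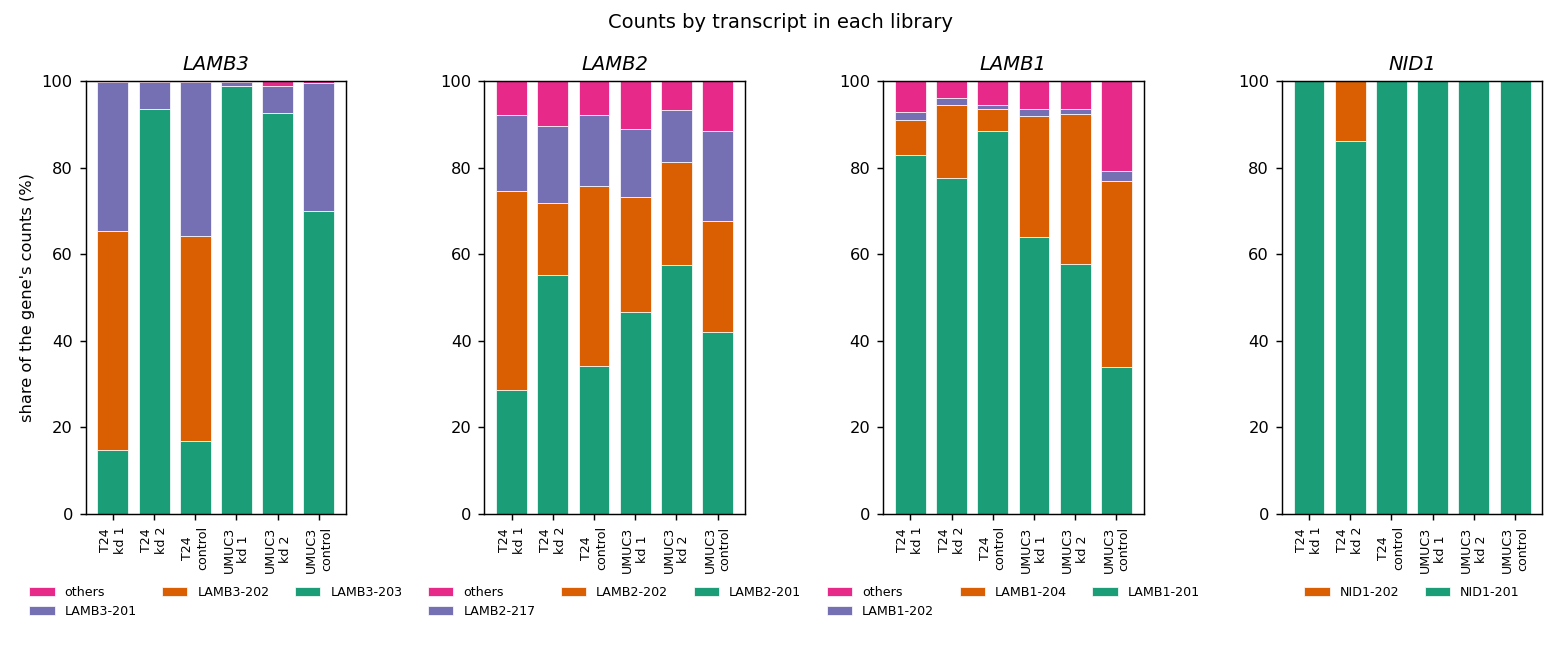
Share of each gene's counts on its main transcripts, in percent, one bar per library (kd, knockdown), for LAMB3, LAMB2, LAMB1 and NID1. T24 knockdown library 2 differs from the other T24 libraries in LAMB3, where LAMB3-203 holds 93.5%, and is the only library with counts assigned to NID1-202.

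Assignments also shifted in LAMB2, LAMB1 and LAMA4, by up to 30.5, 31.2 and 23.4% of counts between libraries of a line, against 13.9% in NID1. In LAMB2, LAMB2-201 held 28.7 and 55.2% in the T24 knockdown libraries and 34.1% in the T24 control, again with knockdown library 2 apart. In LAMB1, LAMB1-201 held 63.9 and 57.8% in UMUC3 knockdown libraries and 33.9% in the UMUC3 control. In LAMA4, the main transcript LAMA4-201 held 72.9 and 86.8% in the T24 knockdown libraries and 69.1% in the T24 control, and another protein-coding transcript, of 38 exons, held 403 counts (13.2%) in T24 knockdown library 1 and 0 in the other T24 libraries. In HSPG2, a retained-intron transcript (5′ end at position 21830713) held 13.2 and 5.44% in UMUC3 knockdown libraries and 2.47% in the UMUC3 control. The largest of these shares was in the UMUC3 library in which HSPG2 was lowest within that line. LAMA5 and LAMC1, with 94.6 to 97.9% and 99.3 to 99.8% of counts on a single transcript, shifted by at most 2.05% within a line. Strand was not given in the sources used here, so reads from genes that overlap a member cannot be told apart. The overlap with most counts was ADRM1, at the 3′ end of LAMA5, with 19781 to 25272 counts in all libraries, and DLD at that of LAMB1 had 5125 to 11583.

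The partners of these genes gave a second view of the same network. Of 23 other basement membrane genes, 18 were tested. COL4A1, a type IV collagen chain, rose with knockdown in both lines together (log2 1.84 ± 0.10, edgeR adjusted p = 0.0184). It was the single gene of the list that passed in edgeR, against 0.0145% of all genes. COL4A1 passed in each line too (1.83 ± 0.11 in T24 and 1.86 ± 0.12 in UMUC3, edgeR adjusted p = 0.043 and 0.0406), against 0.135% and 0.647% of all genes. It had 1271 and 1151 CPM in T24 knockdown libraries and 341.0 CPM in the T24 control. UMUC3 knockdown libraries had 25.4 and 26.8 CPM and the UMUC3 control 7.16 CPM. COL4A1 thus differed by 3.37 to 3.74 times, whereas NID1 differed by 1.12 to 1.37 times. COL4A2, another type IV collagen chain, lay between them, at 1.97 and 1.78 times the control in T24 and 1.83 and 1.59 times in UMUC3. COL4A2 passed in none of these comparisons in edgeR. DESeq2 called 5 of the 18 genes in T24, 4 in UMUC3, 3 with both lines together and 2 for the difference of the effects. Of all genes it called 6.49%, 10.8%, 5.48% and 7.04%, in that order. The list's median was 0.07 in both lines together. Between the lines 12 of the 18 were higher in T24 and 2 lower, with a median log2 of 2.23, against 4404 higher and 3925 lower of all 20721 genes and a median of 0.02. Those higher included COL4A1, COL4A2, COL4A6, COL18A1, AGRN, NTN4, SPARC, PXDN, FBLN1, HMCN1 and TINAGL1, and those lower were LAMA1 (-4.03 ± 0.35, edgeR adjusted p = 0.000661) and SMOC1. TINAGL1, a tubulointerstitial nephritis antigen-like matrix protein, had 687.8 and 620.0 CPM in T24 knockdown libraries and 1004 CPM in the T24 control, and was listed at 0 in UMUC3.

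Of 10 laminin receptor genes, 2 passed in UMUC3 (0.647% of all genes did), both higher after knockdown. DAG1, encoding dystroglycan, had 271.2 and 280.4 CPM in UMUC3 knockdown libraries and 11.6 CPM in the UMUC3 control (log2 4.57 ± 0.11, edgeR adjusted p = 0.0214). In T24 it had 374.2 and 365.8 CPM in knockdown and 344.5 CPM in the control, so the UMUC3 control was the library apart, and the difference of the effects passed (log2 -4.47 ± 0.13, edgeR adjusted p = 0.021). SDC4, encoding the proteoglycan syndecan 4, had 569.7 and 564.1 CPM in UMUC3 knockdown libraries and 225.6 CPM in the UMUC3 control (log2 1.33 ± 0.08, edgeR adjusted p = 0.0367). In T24 and with both lines together edgeR called 0 of the 10, with 5 and 4 at an unadjusted p under 0.05 (12.5% and 11.6% of all genes), and DESeq2 called 1 in each (6.49% and 5.48% of all genes). In UMUC3 DESeq2 called 4 of the 10, against 10.8% of all genes. Between the lines ITGA3, ITGA6, ITGB4 and SDC1 were higher in T24 and ITGB1 lower. ITGB4, the integrin beta chain of hemidesmosomes, had 28.5 and 23.8 CPM in T24 knockdown libraries and 68.7 CPM in the T24 control, and was listed at 0 in UMUC3.

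Of 9 genes that add the laminin-binding glycan to dystroglycan, edgeR called 0 with knockdown in any comparison. At an unadjusted p under 0.05 there were 0 in T24, 1 in UMUC3, 1 with both lines together and 0 for the difference of the effects. Of all genes, 12.5%, 16.8%, 11.6% and 13.5% reached this, in that order. DESeq2 called 0 in each of these comparisons, against 6.49%, 10.8%, 5.48% and 7.04% of all genes. Between the lines POMT1 (log2 2.33 ± 0.15, edgeR adjusted p = 0.000242), POMGNT1 and B4GAT1 were higher in T24 and POMGNT2 lower. Of 15 tested genes of heparan sulfate synthesis and cleavage, which act on perlecan, edgeR called 1 in UMUC3 (0.647% of all genes) and 0 in the other knockdown comparisons. EXTL3 rose in UMUC3, with 121.5 and 124.5 CPM in knockdown and 45.8 CPM in the control (log2 1.43 ± 0.11, edgeR adjusted p = 0.0439). DESeq2 called 1 of the 15 in T24, in UMUC3, with both lines together and for the difference of the effects. Of all genes it called 6.49%, 10.8%, 5.48% and 7.04%, in that order. Between the lines XYLT2, EXT2, GLCE and SULF2 were higher in T24 and XYLT1, NDST1 and HPSE lower. XYLT1, an initiator of the glycan chain, had 0.168 and 0.202 CPM in T24 knockdown libraries, 0 in the T24 control and 83.5 to 98.3 CPM in UMUC3.

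Of 11 genes on a list of proteases of laminin, nidogen and perlecan, edgeR called 1 in UMUC3, against 0.647% of all genes. PLAU, encoding urokinase, fell there, with 586.8 and 565.4 CPM in knockdown and 1795 CPM in the control (log2 -1.64 ± 0.08, edgeR adjusted p = 0.0284). Whether urokinase acts on these proteins was not tested. DESeq2 called 3 of the 11 in T24, 5 in UMUC3, 2 with both lines together and 4 for the difference of the effects. Of all genes it called 6.49%, 10.8%, 5.48% and 7.04%, in that order. Between the lines MMP14, CTSB and CTSS were higher in T24, and MMP9, PLAU, CTSL and HTRA1 lower. MMP9 was listed at 0 in T24 and had 3.85 and 3.35 CPM in UMUC3 knockdown libraries and 33.4 CPM in the UMUC3 control. The knockdown calls in these lists were lost with voom, which called 0 genes of any of them in any knockdown comparison.

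Genes whose pattern was most like that of a member were sought among 9759 genes with a mean of at least 5 CPM in each line, by Pearson's r of log2 (CPM + 1) over the 6 libraries after the mean of each line was subtracted. For LAMC1 they were FGD6, AGPS and RAB10 (r = 1.00, 0.999 and 0.999), for LAMB1 they included KIF1BP and PPP4R2 (0.999 and 0.997), and for NID1 SNX4, ACVR2B and PRAG1 (0.999, 0.999 and 0.998). With 6 libraries that share their line and control, r exceeded 0.95 for 161, 263 and 228 of the 9759 genes, in that order. An r above 0.95 therefore does not single out a gene. How many genes came near the values given above was not counted.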

How the data were processed

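The authors deposited a table of raw counts per transcript for the 6 libraries, not normalised. HISAT2 2.1.0, StringTie 1.3.3b and FastQC 0.11.5 are listed with the hg38 build, per the submitters' processing notes, which give them no role. Transcripts with no gene held 14.86 to 16.1% of the counts and were left out; the others were summed by gene. Of 121915 transcripts with a gene, 121869 matched GENCODE 29 by identifier, 121210 with identical coordinates, so positions are from it on GRCh38. Total counts were 65111683 to 72362436 per library.

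The 20721 genes that reached 10 counts in 2 or more libraries and 30 in all were tested with edgeR 4.0.16 in R 4.3.3: TMM factors, robust quasi-likelihood fit, F test, Benjamini-Hochberg adjustment over all genes at 0.05. Both lines together, and T24 against UMUC3, were fitted by line plus knockdown, leaving 3 degrees of freedom. A 4-group fit, leaving 2, gave the effect per line and the difference of effects. Alternatives were DESeq2 1.42.0, voom in limma 3.58.1, other scaling and filters, the most counted transcript, a replicate block and each library left out. The fit was tested on simulated counts. Paired knockdown libraries differed beyond sampling noise (chi-square per degree of freedom 115.9 in T24 and 112.4 in UMUC3) and were counted separately. Members and lists were chosen with earlier results of these data known. All members are named; from other lists, genes that passed are named. Some that qualify are left out of the text. Promoter sequences are from RefSeq (GRCh38.p14), matched by symbol for all 9 members. LAMB4 and MMP7 were not analysed here.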

Additional observations from a re-analysis of the deposited data

Results flagged for a closer look

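For 4 members every knockdown library moved one way in T24 and the opposite way in UMUC3. The T24 effect minus the UMUC3 effect was log2 1.67 for LAMA5, 0.66 for LAMC1, 1.07 for HSPG2 and -2.08 for LAMA3. The difference itself was tested in edgeR and passed for none of them (adjusted p = 0.113, 0.173, 0.644 and 0.182, in that order). LAMA5, LAMC1 and HSPG2 were above in T24 and below in UMUC3, as were 12.1% of 20721 genes; LAMA3 went the other way.

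Among genes of the other lists that passed in at least 1 comparison, between the lines included, DAG1 differed in effect by log2 -4.47 (edgeR adjusted p = 0.021), because it was 23.4 and 24.2 times the control in UMUC3 knockdown libraries and 1.09 and 1.06 times in T24. Opposite directions in every knockdown library, with a tested difference that did not pass in edgeR, were also seen for SPARC at 1.23 (adjusted p = 0.0975), HTRA1 at -0.86 (0.177), CTSS at 3.11 (0.32), ITGA3 at 0.43 (0.343), NTN4 at -2.19 (0.535), SULF2 at -1.88 (0.608) and HMCN1 at 0.91 (0.698), all in log2 units. Some of these rest on few UMUC3 counts. In knockdown and then control, NTN4 had 10 and 50 against 9, and CTSS 12 and 4 against 44. HMCN1 had 27 and 30 against 32, and SULF2 48 and 81 against 44.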

How the results depend on the processing

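The count of members passing in UMUC3, 1 as reported, was 0 with legacy quasi-likelihood dispersions (chosen after seeing the data), with voom, with a mean of at least 50 counts and with the largest transcript in place of the sum, 3 with DESeq2 (LAMA3 at 1.53, LAMA5 and LAMB1 at 0.75), and 0 to 0 with each library left out. LAMA5 in UMUC3 kept its direction in all 16 alternatives (-1.33 to -1.21) and its side of the threshold in 5; the adjusted p was 0.066, 0.124 (limma voom), 0.0539 and 0.11 under the first 4 settings named, the others from edgeR. For the difference of effects DESeq2 called 2, against 0. Between the lines 6 to 8 members passed, LAMB3 being lost with the largest transcript (1.94, adjusted p = 0.148). The deviations of knockdown libraries that share a number had a correlation of 0.0153 by titles. By column names it was -0.0153, which is no second check, since swapping the T24 numbers only turns the sign. This value cannot show whether a shared number pairs the libraries. With a replicate block 0 members passed in UMUC3 under either numbering (LAMA5 adjusted p = 0.248 and 0.299), and 0 of all genes passed in any knockdown comparison.

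Signs turned, all without a call, as follows. With both lines together LAMA3 was -0.0804 with voom and LAMB3 0.76 with the largest transcript. With 1 library left out, LAMA3 ranged from -0.54 to 1.55, LAMA5 from -1.25 to 0.42, LAMB2 from -0.0295 to 0.81, LAMC1 from -0.28 to 0.38 and HSPG2 from -0.63 to 0.44; 1 end is without the T24 control and the other without the UMUC3 control, and signs also turned without T24 knockdown 2 (LAMC1) and without UMUC3 knockdown 1 (LAMA3, HSPG2). In T24 LAMB2 was 0.22 and LAMB3 1.57 with the largest transcript, and LAMB2 ranged from -0.19 to 0.11 with 1 library left out. In UMUC3 LAMB3 was 0.0836 with the largest transcript, and LAMB1 kept its sign at 1.60 (difference of effects -1.45, against -0.47). Between the lines LAMB2 ranged from -0.32 to 0.23 with 1 library left out. The cause was not tested.

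All-gene counts for T24, UMUC3, the difference and both lines were 28, 134, 12 and 3 as reported, 2, 13, 5 and 2 with legacy dispersions, 980, 1715, 1120 and 981 with DESeq2, 0, 0, 0 and 2 with voom, 43, 224, 35 and 8 with no filter, and 11, 16, 22 and 0 with the largest transcript (lines, 4757 against 8329). The difference gave 5 with RLE factors and with a mean of at least 50 counts. They fell to 0 without any single knockdown library and were 25 to 135 without a control of the other line. A line's comparison without its only control was not possible. At 2 or 3 residual degrees of freedom small effects are not detectable.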
